A study of Mus musculus with 6 samples.

Results

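The D-type cyclins, Myc and the CDK inhibitors decide whether a cell passes from G1 into S phase. Their transcripts were followed through an epithelial-mesenchymal transition (EMT) and its reversal (MET) in EpH4 cells, a mouse mammary epithelial line that the study calls near-normal. The gene set was fixed by name and held 10 genes, namely Ccnd1, Ccnd2, Ccnd3, Myc, Cdkn1a (p21), Cdkn1b (p27), Cdkn1c (p57), Cdkn2a (p16 and Arf), Cdkn2b (p15) and Cdkn2c (p18). A row was at hand for 7 of them, and all 7 were among the 13893 genes tested of 17428 with a row. Cdkn1c, Cdkn2a and Cdkn2b are not analysed here.

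E cells were grown in normal medium with serum and insulin. M cells had TGFβ1 in the same medium for 7 days, and RE cells were M cultures returned to normal medium for a further 4 days, so every RE culture had been through the M stage. Total RNA was sequenced from 2 libraries per stage, named E1, E2, M1, M2, RE1 and RE2 here. The methods call the libraries biological replicates of a single cell line, so the p-values below measure the spread between these cultures only. E cells collected at the later times without TGFβ1 are not among the samples analysed here, so treatment, time in culture and passage cannot be told apart.

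D-type cyclins bind CDK4 and CDK6, and the active kinases phosphorylate Rb and its relatives p107 and p130, which releases E2F factors to transcribe the genes of S phase. INK4 inhibitors such as p18 bind CDK4 and CDK6 directly, whereas the Cip/Kip inhibitors p21 and p27 bind whole cyclin-CDK complexes and block CDK2 above all. Myc pairs with Max to activate growth genes, and the MXD proteins and Mnt compete for Max and repress. In normal epithelial cells, TGFβ is known to arrest growth by lowering Myc and raising p15 and p21, and mammary alveolar growth depends on cyclin D1.

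Promoter sequence was available for 4 of the 7 genes (Ccnd3, Cdkn1a, Cdkn1b and Cdkn2c) from RefSeq, build GRCm38.p6, as windows of 250 bases before to 50 bases after each annotated start. Cdkn1a and Cdkn2c are shown because both passed the test in a comparison below and each has 2 annotated starts of different base composition. Capitals mark the letters searched for, which were the GC box GGGCGG, the CCAAT box by its own letters, the E-box CACGTG of Myc and Max, the SMAD letters CAGAC, the TATA box TATAAA, the AP-1 motif TGANTCA and the p53 half-site, each on both strands. Positions count from the start, and no 2 marked matches overlapped. The first Cdkn1a window is chr17:29090729-29091028 on the plus strand and the second is chr17:29093519-29093818 on the plus strand. The first Cdkn2c window is chr4:109666707-109667006 on the minus strand and the second is chr4:109665323-109665622 on the minus strand.
Cdkn1a start 1: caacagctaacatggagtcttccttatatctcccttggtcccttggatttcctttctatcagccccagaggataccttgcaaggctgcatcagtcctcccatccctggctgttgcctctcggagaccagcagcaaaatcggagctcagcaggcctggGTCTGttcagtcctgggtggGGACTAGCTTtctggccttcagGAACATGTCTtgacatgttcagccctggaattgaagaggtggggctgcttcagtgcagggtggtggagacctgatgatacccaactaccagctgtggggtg
Cdkn1a start 2: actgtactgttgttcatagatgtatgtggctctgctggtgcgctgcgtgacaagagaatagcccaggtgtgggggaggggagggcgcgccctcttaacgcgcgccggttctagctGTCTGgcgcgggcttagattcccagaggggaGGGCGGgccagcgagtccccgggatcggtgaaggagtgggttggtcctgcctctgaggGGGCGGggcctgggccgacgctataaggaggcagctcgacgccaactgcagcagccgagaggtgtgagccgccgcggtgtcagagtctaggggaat
Cdkn2c start 1: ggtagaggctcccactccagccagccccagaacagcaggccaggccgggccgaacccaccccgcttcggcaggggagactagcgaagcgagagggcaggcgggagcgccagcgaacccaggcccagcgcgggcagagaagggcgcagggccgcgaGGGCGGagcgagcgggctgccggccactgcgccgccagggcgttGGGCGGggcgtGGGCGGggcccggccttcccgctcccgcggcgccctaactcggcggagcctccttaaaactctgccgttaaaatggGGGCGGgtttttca
Cdkn2c start 2: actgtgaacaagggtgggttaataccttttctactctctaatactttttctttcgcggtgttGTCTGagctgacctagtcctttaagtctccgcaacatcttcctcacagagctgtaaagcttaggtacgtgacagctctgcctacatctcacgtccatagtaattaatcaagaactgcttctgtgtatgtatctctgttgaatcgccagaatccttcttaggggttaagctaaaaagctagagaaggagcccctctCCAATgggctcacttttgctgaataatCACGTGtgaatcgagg

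The first Cdkn1a window held 54.7% GC and p53 half-sites at -73 and -51, and 8.36% of 32851 promoters of this length held at least 1 such half-site. The second held 64.7% GC and GC boxes at -104 and -46, letters found in 35.7% of promoters. Both Cdkn1a windows had GTCTG, the reverse complement of the SMAD letters, at -93 and -135 respectively, and 49.6% of promoters held that motif on either strand. For Cdkn2c, the first window held 73.3% GC with 4 GC boxes, whereas the second held 44.0% GC, GTCTG at -188, CCAAT at 8 and CACGTG at 35. CCAAT was in 37.4% and CACGTG in 7.15% of promoters, and the median GC content was 52.7%. These matches are a description of letters. The RNA values below are summed over each gene and do not tell which start was used.

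The values are coverage, the sequenced bases summed over a gene, given here in ppm of each TMM-scaled library total. The 6 libraries held between 35782513 and 47928557 reads' worth of 50 bases, and the 7 genes between 426 (Ccnd2, M1) and 12833 (Myc, E2) reads' worth, far above the floor of 3. E1 and E2 differed from each other by more than 2-fold at 1066 genes, against 282 for the M pair and 224 for the RE pair, and the E1 minus E2 difference on the log2 scale went with transcript length (Spearman rho -0.45 across 12972 genes, all read from these libraries). Myc, Ccnd1 and Ccnd2 were higher in E2 and Cdkn1b and Cdkn2c in E1, and the part of that trend in their values was not tested. Epithelial markers summed to between 1353 and 1694 ppm in E, 1806 and 1942 ppm in M, and 982 and 1044 ppm in RE, without overlap. Krt8, Krt18, Cdh1 and Krt14 were expressed and Krt5 was near the floor. Epcam, also listed, had no row at hand. Leukocyte markers reached at most 9.46 ppm with Ptprc at or under the floor, endothelial markers at most 2.60 ppm, in M, and Adipoq at most 0.0488 ppm. In bulk RNA, fewer cells of a type and less RNA per cell cannot be told apart.

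Each stage was compared with both others. A gene was called a differentially expressed gene (DEG) when its log2 fold change passed 1 in either direction and its Benjamini-Hochberg adjusted p from limma was below 0.01. Positive log2 fold changes stand for a higher level in the stage named second. The comparisons share libraries, so they are not independent of each other.

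Myc had 228 ppm in E1 and 337 ppm in E2. M1 had 84.6 ppm and M2 71.0 ppm. RE1 and RE2 had 115.1 and 114.7 ppm. The stages did not overlap: both E libraries were highest, both M libraries lowest, and RE stood between them. Myc fell in M cells with a log2 fold change of -1.84 (SE 0.20, 95% interval -2.30 to -1.38, limma adjusted p = 0.000464), to 0.275 of the E mean. Between M and RE the log2 fold change was 0.57 (95% interval 0.11 to 1.03, limma adjusted p = 0.0643) and did not pass. Against E, Myc was still lower in RE cells (log2 fold change -1.27, 95% interval -1.73 to -0.81, limma adjusted p = 0.00433), at 0.407 of the E mean. The fall in M held under all 19 alternative settings.

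Ccnd1, which encodes cyclin D1, had 211 ppm in E1 and 299 ppm in E2. M1 and M2 had 181 and 186 ppm. RE1 and RE2 had 90.8 and 101 ppm. Ccnd1 was thus lowest after TGFβ1 had been removed, and no RE library reached the level of any M or E library. The step from E to M did not pass (log2 fold change -0.45, 95% interval -0.87 to -0.03, limma adjusted p = 0.0805). The step from M to RE had an adjusted p of 0.00753 in limma but a log2 fold change of -0.94 (SE 0.18), just short of the threshold. From E to RE, Ccnd1 fell by 1.39 on the log2 scale (SE 0.18, limma adjusted p = 0.0023), to 0.377 of the E mean. Its course therefore differed in order from that of Myc, whose lowest level was in M.

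Ccnd2 encodes cyclin D2. E1 and E2 had 15.9 and 21.5 ppm, M1 and M2 had 10.2 and 11.3 ppm, and RE1 and RE2 had 13.8 and 11.4 ppm. Both E libraries lay above all others, but no comparison passed. The log2 fold change was -0.78 in E vs. M (95% interval -1.25 to -0.32, limma adjusted p = 0.0174) and -0.55 in E vs. RE (limma adjusted p = 0.0716). Ccnd3, for cyclin D3, had 35.1 and 34.6 ppm in E, 35.7 and 39.4 ppm in M, and 27.0 and 34.8 ppm in RE. Its E and RE libraries overlapped, and the interval of its log2 fold change in E vs. RE ran from -0.56 to 0.19, which leaves out a fall as large as that of Ccnd1.

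**Figure D1:**
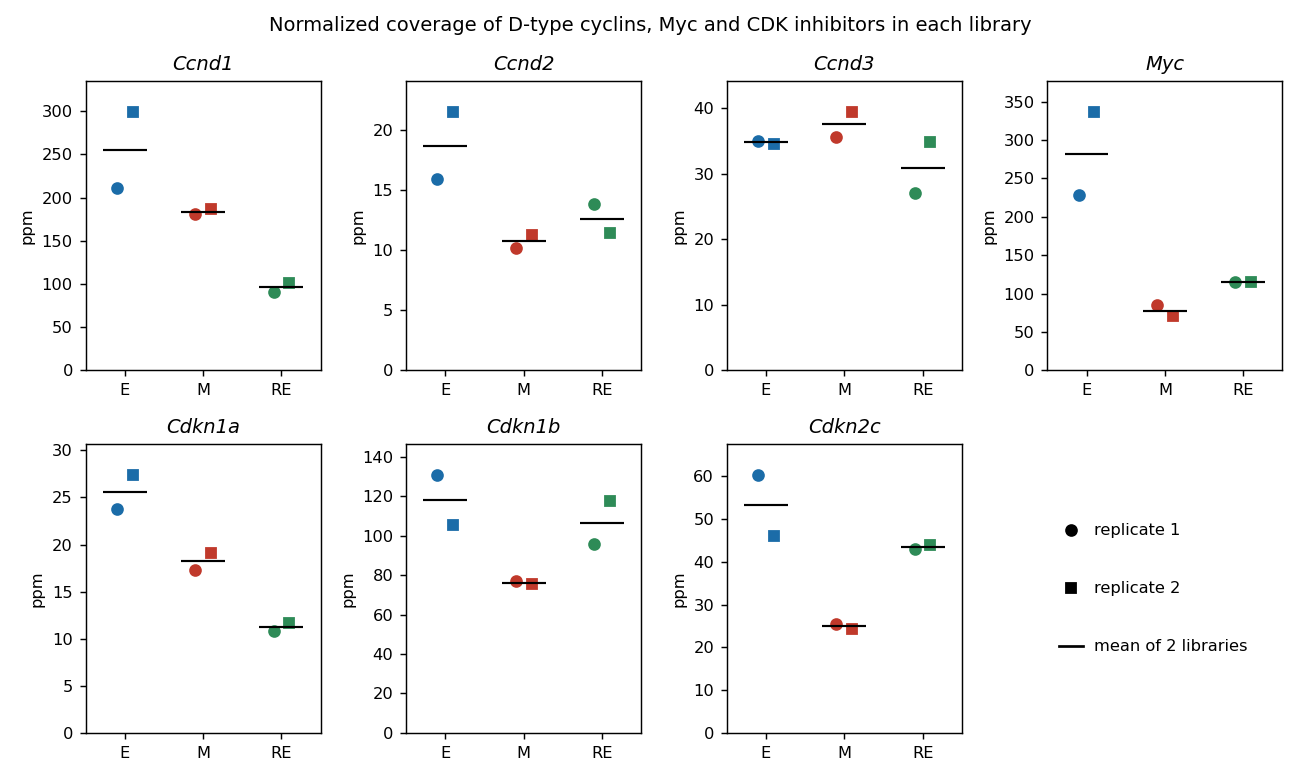
Normalized coverage in ppm (vertical axes, each from 0) of the 7 genes in E, M and RE, with circles for replicate 1, squares for replicate 2 and a line at the mean of the 2 libraries. Myc and Cdkn2c are lowest in M, Ccnd1 and Cdkn1a step down from E to M to RE, and Ccnd3 lies between 27.0 and 39.4 ppm.

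The share of each gene in the D-type cyclin transcripts was read within each library. Dividing by transcript length, Ccnd1 made up 74.7% and 80.2% of the summed D cyclin level in E1 and E2. It made up 72.4% and 70.9% in M1 and M2, and 61.9% and 59.7% in RE1 and RE2. The mean share of Ccnd3 per length went the other way, from 19.2% ± 3.93 (SD, n = 2) in E to 25.9% ± 0.919 in M and 34.4% ± 2.62 in RE. The shares are parts of 1 sum, so with Ccnd2 small a fall in the Ccnd1 share raises that of Ccnd3. The mean level of Ccnd3 itself was 16.5 ppm per kb in E, 17.8 in M and 14.6 in RE. Ccnd2 never passed 5.56%. The summed level was 87.6 ± 17.1 ppm per kb in E, 68.6 ± 2.44 in M and 42.3 ± 4.38 in RE (mean ± SD, n = 2 each). The shares were given no test.

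**Figure D2:**
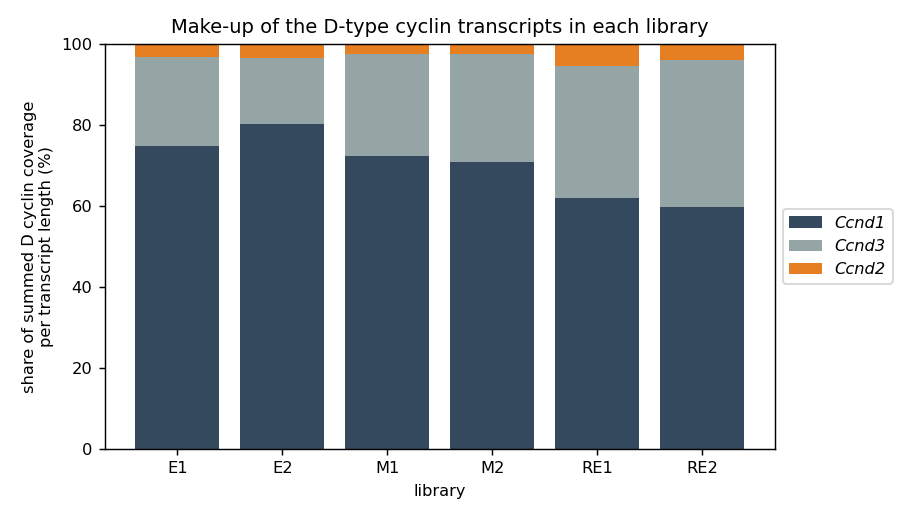
Share in percent of Ccnd1, Ccnd2 and Ccnd3 in the summed D cyclin coverage per transcript length (vertical axis) for each of the 6 libraries. The Ccnd1 share is between 59.7% and 61.9% in the RE libraries and at least 70.9% in the others.

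Cdkn1a encodes p21, the Cip/Kip inhibitor that p53 and TGFβ are known to induce. E1 and E2 had 23.8 and 27.4 ppm, M1 and M2 had 17.3 and 19.1 ppm, and RE1 and RE2 had 10.9 and 11.7 ppm. The 3 stages did not overlap and stepped down in that order, so Cdkn1a was not higher under TGFβ1. The log2 fold change was -0.49 in E vs. M (95% interval -0.84 to -0.13, limma adjusted p = 0.0384) and -0.69 in M vs. RE (limma adjusted p = 0.0133), neither of which passed. Over both steps it fell by 1.17 on the log2 scale (SE 0.15, limma adjusted p = 0.00232), to 0.44 of the E mean.

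Cdkn1b encodes p27. E1 and E2 had 131 and 105 ppm, M1 and M2 had 77.0 and 75.4 ppm, and RE1 and RE2 had 95.7 and 118 ppm. Both M libraries lay below the others, while E and RE overlapped. None of its comparisons passed: the log2 fold change was -0.62 in E vs. M (limma adjusted p = 0.0188), 0.48 in M vs. RE (limma adjusted p = 0.0592) and -0.15 in E vs. RE (95% interval -0.52 to 0.23, limma adjusted p = 0.52).

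Cdkn2c encodes p18, the INK4 inhibitor with the CACGTG letters in its second window. E1 and E2 had 60.3 and 46.0 ppm, M1 and M2 had 25.4 and 24.4 ppm, and RE1 and RE2 had 43.0 and 44.0 ppm. Both M libraries stood well below the rest, and RE lay just under E2. Cdkn2c fell in M cells (log2 fold change -1.08, SE 0.16, limma adjusted p = 0.00192), to 0.469 of the E mean. From M to RE its log2 fold change was 0.80 (95% interval 0.43 to 1.17), with an adjusted p of 0.00868 in limma but less than the fold required. Between E and RE its log2 fold change was -0.28 (95% interval -0.65 to 0.10, limma adjusted p = 0.222).

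In E vs. M, 2 of the 7 genes were called, both lower (Myc and Cdkn2c), beside 16.8% of all genes tested that were called, 8.35% lower and 8.41% higher. With 7 genes, 2 calls cannot be set apart from that background. The libraries of E and M did not overlap for 6 of the 7 genes with M lower and for Ccnd3 with M higher, a pattern that 35.6% and 35.5% of all genes showed. The call of Cdkn2c was lost without E1 (log2 fold change -0.89), without M1 (limma adjusted p = 0.0231), without M2 (limma adjusted p = 0.0266) and once trends with GC content and transcript length were removed (log2 fold change -0.90). Ccnd2 was called with library totals as the only scaling (log2 fold change -1.08), and in place of Cdkn2c without E1 (limma adjusted p = 0.000241, just past the fold threshold) and with those trends removed (-1.17).

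In M vs. RE, 0 of the 7 genes were called by limma, beside 12.7% of all genes tested, 7.92% higher and 4.79% lower. All 7 had log2 fold changes under 1 in size, and 5 had an unadjusted p under 0.05 (Ccnd1 and Cdkn1a lower, Myc, Cdkn1b and Cdkn2c higher). The libraries did not overlap for 4 genes with RE higher and 3 with RE lower, as for 37.5% and 41.1% of all genes. A fold threshold of 1.5 in place of 2 called 2 genes, Ccnd1 and Cdkn2c, beside 16.5% of all genes.

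In E vs. RE, 3 of the 7 genes were called, all lower in RE (Ccnd1, Myc and Cdkn1a), beside 9.09% of all genes tested that were called, 3.16% lower and 5.93% higher. The libraries did not overlap for 5 genes with RE lower and 0 with RE higher, as for 33.3% and 33.7% of all genes, while Ccnd3 and Cdkn1b overlapped. Across the 19 alternative settings the log2 fold changes of Ccnd1, Myc and Cdkn1a stayed below 0, but their calls did not all hold. When only the E and RE libraries were fitted, all 3 calls were lost at limma adjusted p of 0.010008 (Ccnd1), 0.0138 (Myc) and 0.0107 (Cdkn1a). They were also lost without M1 (Ccnd1 at the threshold, 0.0136 for Myc and 0.0105 for Cdkn1a by limma), without RE1 (0.0433, 0.0575 and 0.0435) and without RE2 (0.0253, 0.0432 and 0.0279), and without M2 only Ccnd1 remained called. Over all genes, 9 were called without RE1, 50 without RE2, 608 without M1, 629 without M2 and 2288 without E2, against 1263 with all libraries.

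**Figure D3:**
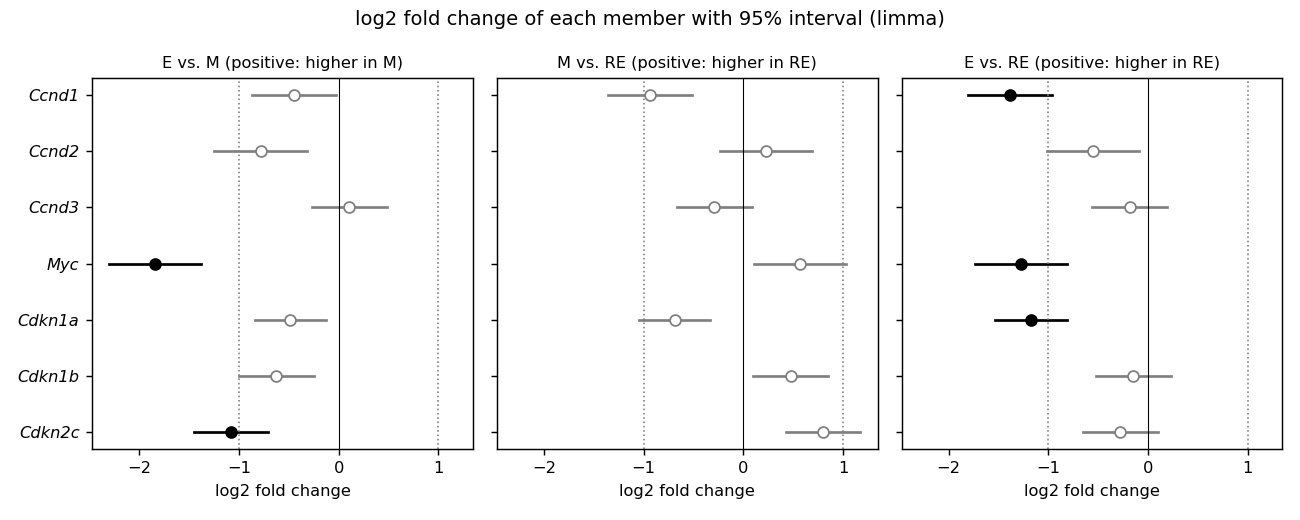
log2 fold change (horizontal axis) of the 7 genes in E vs. M, M vs. RE and E vs. RE, with limma's 95% interval as a bar, filled points for DEGs and dotted lines at -1 and 1. Myc and Cdkn2c are filled in E vs. M, none in M vs. RE, and Ccnd1, Myc and Cdkn1a in E vs. RE.

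Set side by side per transcript length, Myc was the highest of the 7 in E cells at 121 ± 32.7 ppm per kb (mean ± SD, n = 2) and Ccnd1 came second at 68.2 ± 16.7. In M cells the order of the leading pair was turned, with Ccnd1 at 49.1 ± 1.05 and Myc at 33.3 ± 4.10 ppm per kb. In RE cells Myc led again at 49.2 ± 0.127, and Ccnd1 at 25.7 ± 2.03 overlapped with Cdkn1b at 23.4 ± 3.41 ppm per kb. Cdkn1a and Ccnd2 were the lowest of the 7 in every library, with Ccnd2 at 2.95 ± 0.623 ppm per kb in E, 1.69 ± 0.125 in M and 1.99 ± 0.265 in RE. Cdkn1b and Cdkn2c overlapped in E, and Ccnd3 and Cdkn1b overlapped in M.

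The balance of inhibitor to cyclin transcripts within a library does not depend on how libraries are scaled. The ratio of Cdkn1b to Ccnd1, each per length, was 0.510 and 0.289 in E1 and E2, 0.350 and 0.332 in M1 and M2, and 0.866 and 0.952 in RE1 and RE2. The ratio of Cdkn2c to Ccnd1 was 0.433 and 0.233 in E, 0.213 and 0.198 in M, and 0.716 and 0.656 in RE. Both ratios were thus higher in RE than in any E or M library, with RE means 2.27 and 2.06 times the E means. The ratio of Cdkn1a to Ccnd1 was also highest in RE (0.215 and 0.207, against 0.203 in E1) but moved less. It lay between 0.165 and 0.215 in all 6 libraries, with an RE mean 1.15 times that of E. These ratios were given no test.

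No transcript of the kinases themselves was called. Over all genes, 16.8%, 12.7% and 9.09% were called in E vs. M, M vs. RE and E vs. RE. Of 11 tested genes for CDK4/6, CDK2, their activators and cyclins E and A, 0 were called in any comparison by limma. In E vs. M, 1 had an adjusted p below 0.01 (23.8% of all genes) and 5 an unadjusted p below 0.05. For M vs. RE these were 0 (16.5% of all genes) and 6, and for E vs. RE 1 (12.7%) and 6. The list's median log2 fold change was -0.19, -0.39 and -0.37 in that order, against medians between -0.02 and 0.00 over all genes. Cdk4 had between 271 and 412 ppm in the 6 libraries and a log2 fold change of -0.37 in E vs. RE (limma adjusted p = 0.114). Cdk6 was uneven in E, with 37.4 ppm in E1 and 73.8 ppm in E2, so that its log2 fold change of -0.79 in E vs. RE had an adjusted p of 0.0846 in limma. Both were picked as the direct partners of the D-type cyclins.

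Across all lists around these genes, which hold 161 tested genes, 3 were called higher and 16 lower in E vs. M (11.8% called), 18 higher and 6 lower in M vs. RE (14.9%), and 9 higher and 6 lower in E vs. RE (9.32%). The shares over all genes were 16.8%, 12.7% and 9.09%. By direction these were 8.41% higher and 8.35% lower in E vs. M, and 7.92% and 4.79% in M vs. RE. In E vs. RE they were 5.93% and 3.16%. The 3 higher calls in E vs. M were few beside that background. Single lists lay on both sides, and no list was tested against other genes. The E vs. M count was 10 without M1 and 9 without M2. The M vs. RE count was 13 without M1, 14 without M2, 10 without RE1 and 14 without RE2. The E vs. RE count was 6 without M1 or M2, 0 without RE1 or RE2 (so that every E vs. RE call named below was lost without either), 26 without E1 and 30 without E2.

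Among 17 genes for pocket proteins, E2F factors and their partners, E2f2 was the 1 called in E vs. M (16.8% of all genes) and M vs. RE (12.7%). This activating E2F had 21.3 ppm in both E1 and E2, 3.69 and 5.50 ppm in M1 and M2, and 18.0 and 20.2 ppm in RE1 and RE2. It fell in M (log2 fold change -2.22, limma adjusted p = 0.00027) and rose in RE (log2 fold change 2.06, limma adjusted p = 0.000454), under all 19 alternative settings. In E vs. RE, 2 of the 17 were called, both higher, beside 9.09% of all genes called, 5.93% higher. With 17 genes, 2 calls cannot be set apart from that background. Rbl2, which encodes p130, the pocket protein of resting cells, had 25.6 and 25.5 ppm in E, 49.9 and 51.7 ppm in M, and 93.2 and 84.2 ppm in RE. It rose from E to RE by 1.79 on the log2 scale (SE 0.12, limma adjusted p = 0.000392). Rb1 had 41.5 and 46.9 ppm in E, 59.8 and 59.0 ppm in M, and 113 and 90.4 ppm in RE (log2 fold change 1.19, limma adjusted p = 0.00204), a call also lost without M1 or M2, with E and RE fitted alone and with GC and length trends removed. The list had a median log2 fold change of 0.41 for M against E, -0.41 for RE against M and -0.09 for RE against E.

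Rbl2 and Rb1 thus rose from E to RE while Ccnd1 fell. The ratio of Rbl2 to Ccnd1 per length was 0.0922 and 0.0648 in E1 and E2, 0.209 and 0.211 in M1 and M2, and 0.780 and 0.630 in RE1 and RE2. The ratio of Rb1 to Ccnd1 was 0.158 and 0.126 in E, 0.266 and 0.254 in M, and 0.996 and 0.715 in RE. The RE means were 8.98 and 6.02 times the E means. Both ratios were chosen after the values were seen.

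**Figure D4:**
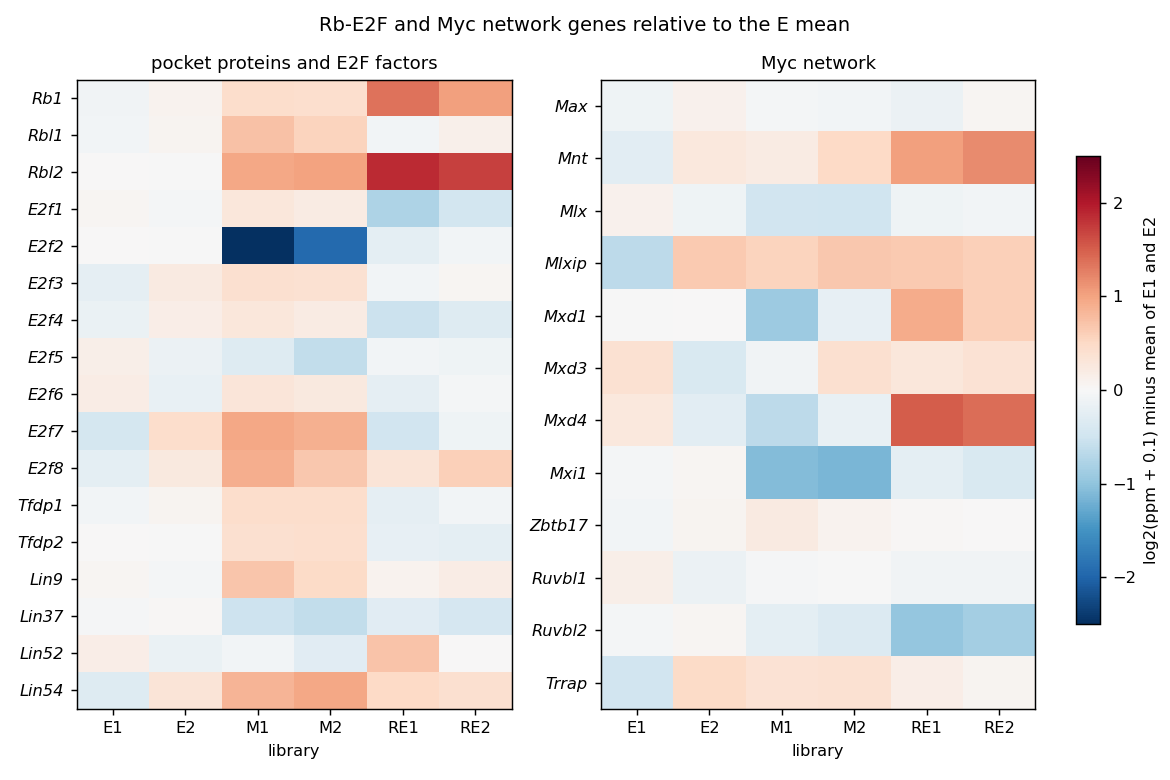
log2(ppm + 0.1) minus the mean of E1 and E2 (colour, limited to 2.5 either way) for the tested pocket protein and E2F genes (left) and Myc network genes (right) in the 6 libraries. Rb1 and Rbl2 are reddest in RE1 and RE2, E2f2 is blue in M1 and M2, and Mnt and Mxd4 are red in the RE libraries.

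The 21 tested E2F target genes, which include the MCM helicase subunits and the enzymes of nucleotide synthesis, had log2 fold changes below 0 in 21 of 21 cases in M vs. RE (median -0.70), in 18 of 21 in E vs. RE (median -0.32) and in 6 of 21 in E vs. M (median 0.30). With library totals as the only scaling, which moves the all-gene median to -0.29 in E vs. M and 0.18 in M vs. RE, the counts below 0 were 10 in E vs. M and 19 in M vs. RE. The E vs. RE count was 15 without E1 (median -0.22), 20 without E2 (-0.50), 16 without RE1 (-0.18) and 20 without RE2 (-0.43). The called member was Mybl2, a transcription factor of the S and G2 phases. It had 100.5 and 86.3 ppm in E, 107 and 106 ppm in M, and 33.2 and 45.8 ppm in RE. It was lower in RE than in M (log2 fold change -1.44, limma adjusted p = 0.00104) and than in E (log2 fold change -1.25, limma adjusted p = 0.00314). The former call was lost without M1, M2 or RE1, and the latter also without M1 or M2 and with E and RE fitted alone. The summed level of the proliferation markers Mki67 and Top2a was between 1955 and 2015 ppm in E, 2830 and 3049 ppm in M, and 1718 and 1937 ppm in RE, and its part in these values was not tested. These are RNA levels. By BrdU uptake, the study reported the smallest share of labelled nuclei in M, with only RE differing significantly from M.

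Around Myc, Mxd4 and Mnt were higher in RE, while Max, the shared partner, lay between 26.3 and 31.4 ppm in all libraries. Of 12 tested genes of the Myc network, 0 were called higher and 1 lower in E vs. M, beside 8.41% and 8.35% of all genes. In M vs. RE 2 were called higher and 0 lower (7.92% and 4.79%), and in E vs. RE 2 and 0 (5.93% and 3.16%). With 12 genes, such counts cannot be set apart from that background. The 1 lower in M was Mxi1 (log2 fold change -1.11, limma adjusted p = 0.00134), a call lost without M1 or M2. Mxd4 had 10.6 and 7.38 ppm in E, 5.60 and 7.74 ppm in M, and 25.4 and 23.5 ppm in RE. It rose from M to RE by 1.87 on the log2 scale (limma adjusted p = 0.00118) and was higher in RE than in E by 1.45 (limma adjusted p = 0.00507), the former lost without M1, RE1 or RE2 and the latter also without M1 or M2 and with E and RE fitted alone. Mnt, the repressor that pairs with Max in growing and resting cells, had 25.0 and 36.4 ppm in E, 34.7 and 42.7 ppm in M, and 61.8 and 68.5 ppm in RE. Its log2 fold change of 1.11 in E vs. RE passed (limma adjusted p = 0.00795) but was lost in 9 of 19 settings, E1, M1 or M2 left out among them. That of Mxd1 in M vs. RE (1.32, limma adjusted p = 0.00938) was lost in 8 of 19, with any M or RE library left out among them. The median of the list stayed between -0.04 and 0.09 in the 3 comparisons.

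The ratio of Mnt to Myc per length was 0.0557 and 0.0550 in E1 and E2, 0.209 and 0.306 in M1 and M2, and 0.273 and 0.304 in RE1 and RE2. The M and RE means were 4.65 and 5.22 times the E mean. The ratio of Mxd4 to Myc was 0.0282 and 0.0132 in E, 0.0400 and 0.0658 in M, and 0.133 and 0.123 in RE. Mnt thus stood higher relative to Myc in M and RE alike, while Mxd4 did so most in RE. These ratios too were chosen after the values were seen and given no test.

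**Figure D5:**
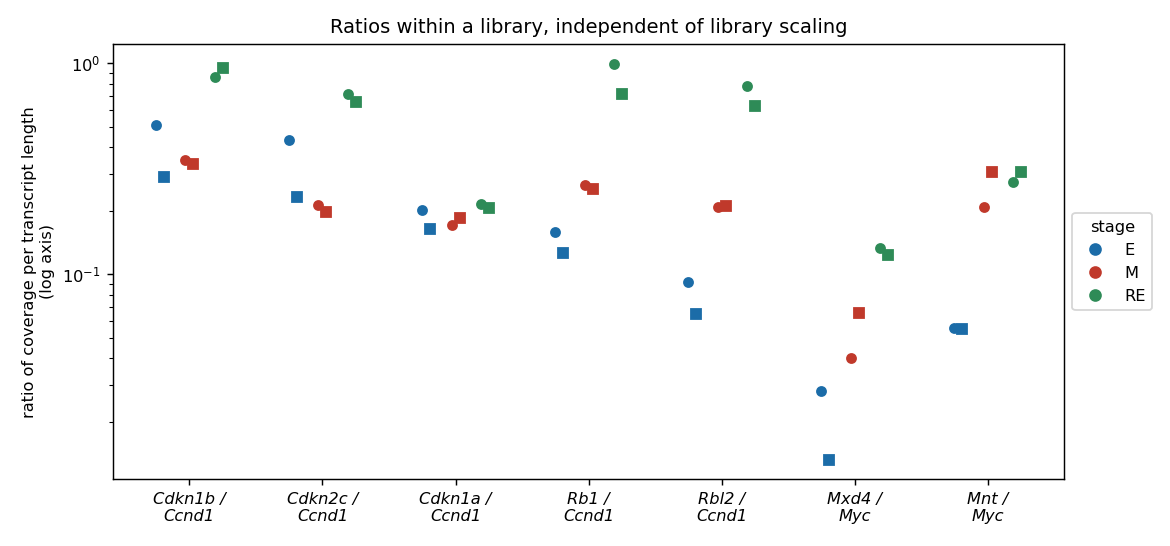
Ratio of coverage per transcript length (vertical log axis) for 7 gene pairs in the 6 libraries, with circles for replicate 1, squares for replicate 2 and colours for E, M and RE. The RE libraries are highest for Cdkn1b, Cdkn2c, Rb1 and Rbl2 relative to Ccnd1 and for Mxd4 relative to Myc. For Cdkn1a relative to Ccnd1 they are highest by little, and the 6 libraries lie between 0.165 and 0.215.

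The 25 tested Myc target genes, mostly for ribosome assembly, polyamine and nucleotide synthesis, gave 0 calls lower in M, where Myc was lowest. All genes gave 8.35% lower and 8.41% higher there, and 12.7% and 9.09% called in M vs. RE and E vs. RE. In E vs. M, 14 of the 25 had a log2 fold change below 0 (median -0.11, or 22 with a median of -0.41 under library totals only). Tfrc, the transferrin receptor, was the 1 of them called and was higher (log2 fold change 1.02, limma adjusted p = 0.00128). That call was lost with library totals, with GC and length trends removed and without E2, M1 or M2. In M vs. RE, 23 of 25 were below 0 with 0 called by limma (median -0.44, 4 with an adjusted p below 0.01, 17 with an unadjusted p below 0.05, and 20 below 0 under library totals only). In E vs. RE, 24 of 25 were below 0 (median -0.54), a count of 24 under library totals as well. Shmt2, the mitochondrial serine hydroxymethyltransferase, was the 1 called, with 462 and 613 ppm in E, 388 and 365 ppm in M, and 183 and 218 ppm in RE (log2 fold change -1.41, limma adjusted p = 0.0019).

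A list of 14 tested genes around growth signals known to raise cyclin D also holds Dusp6 and Spry2, which restrain such signals. Of the 14, 6 were called lower in E vs. M and 0 higher, beside 8.35% and 8.41% of all genes. Log2 fold changes were below 0 for 10 and above 0 for 4 (median -0.96). The 6 called lower, which include Spry2, were led by Fos, Dusp6, Egr1 and Jun. The call of Egr1 was lost without M2 and those of Jun, Spry2 and Stat5a without M1 or M2. That of Spry2 was also lost with GC and length trends removed, while those of Fos and Dusp6 held throughout. Fos, an AP-1 subunit, had 223 and 157 ppm in E, 14.3 and 12.4 ppm in M, and 60.0 and 51.5 ppm in RE. It fell in M (log2 fold change -3.80, limma adjusted p = 2.48e-05), rose from M to RE (2.05, limma adjusted p = 0.000306) and was lower in RE than in E (-1.75, limma adjusted p = 0.00136). Dusp6, the ERK phosphatase, had 73.2 and 57.0 ppm in E, 12.4 and 12.5 ppm in M, and 47.0 and 39.9 ppm in RE. In M vs. RE, 6 of 14 were called higher, beside 7.92% of all genes, among them Esr1 (2.30) and Stat5a (2.09 on the log2 scale). Log2 fold changes there were above 0 for 12 genes and below 0 for 2. Etv4, an ETS factor with 59.9 and 55.2 ppm in E, 92.7 and 77.1 ppm in M, and 25.9 and 31.8 ppm in RE, fell from M to RE by 1.55 (limma adjusted p = 0.000464). In M vs. RE the calls of Esr1 and Jun were lost with any M or RE library left out. That of Egr1 was lost without M2, RE1 or RE2, and that of Etv4 without RE1. Stat3 was higher in RE than in E (1.14, limma adjusted p = 0.00509), a call also lost without E1, M1 or M2, with E and RE fitted alone and with GC and length trends removed. Ccnd1 itself was lowest in RE, and a link of these genes to Ccnd1 was not tested.

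Of 13 tested regulators of the TGFβ growth arrest, 0 were called higher and 1 lower in E vs. M, beside 8.41% and 8.35% of all genes. In M vs. RE 3 were called higher and 1 lower (7.92% and 4.79%), and in E vs. RE 2 and 0 (5.93% and 3.16%). With 13 genes, the 1 call in E vs. M cannot be set apart from that background. It was Cebpb, with 111 and 67.3 ppm in E, 26.4 and 31.5 ppm in M, and 68.9 and 94.6 ppm in RE. Its log2 fold change there was -1.58 (limma adjusted p = 0.00308), a call lost without M1 or M2. Id2, an inhibitor of differentiation, had 15.8 and 8.53 ppm in E, 5.85 and 6.80 ppm in M, and 41.1 and 44.1 ppm in RE. It rose from M to RE by 2.73 (limma adjusted p = 0.000423) and was higher in RE than in E by 1.87 (limma adjusted p = 0.00364). Id3 rose likewise, by 1.40 from M to RE (limma adjusted p = 0.0019) and by 1.72 from E to RE (limma adjusted p = 0.00146). Smad7, the inhibitory SMAD that TGFβ induces, had 24.5 and 27.5 ppm in E, 37.9 and 45.8 ppm in M, and 13.7 and 17.9 ppm in RE, and fell from M to RE by 1.41 (limma adjusted p = 0.00136). The M vs. RE call of Id3 was lost without M1, RE1 or RE2 and that of Smad7 without M1, M2 or RE1, and the E vs. RE call of Id2 also without M1 or M2 and with E and RE fitted alone.

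Cdkn1a is a direct p53 target, and other p53 targets went both ways. Of 23 tested, 1 was called higher and 4 lower in E vs. M, beside 8.41% and 8.35% of all genes. In M vs. RE 4 were called higher and 1 lower (7.92% and 4.79%), and in E vs. RE 1 and 3 (5.93% and 3.16%). Log2 fold changes were above 0 for 11, 8 and 7 genes and below 0 for 12, 15 and 16, in that order. The medians were -0.14, -0.32 and -0.50. Ddit4l, Btg2 and Perp were lower in M (log2 fold changes -2.24, -2.11 and -1.74) and higher again in RE than in M (3.46, 1.98 and 1.82). The fall of Ddit4l was not called without M1 or M2, nor the rise of Btg2 without M2, RE1 or RE2. Sesn1, which restrains mTORC1, had 30.4 and 22.1 ppm in E, 27.4 and 25.1 ppm in M, and 128 and 112 ppm in RE, a rise of 2.20 against E (limma adjusted p = 0.000542). Plk2, a polo-like kinase, had 690 and 831 ppm in E, 539 and 457 ppm in M, and 268 and 258 ppm in RE, and like Cdkn1a stepped down without overlap (-1.53 in E vs. RE, limma adjusted p = 0.000984). Trp53 itself was not called in any comparison by limma, with log2 fold changes of 0.30, -0.44 and -0.14.

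The genes most like each called member over the 6 libraries were found by the root mean square (RMS) difference of centred log2 values. For Ccnd1 these were Shmt2 (0.0563), Mthfd2 (0.0647) and Slc1a5 (0.104), which encode 2 mitochondrial folate enzymes and a glutamine transporter. Mthfd2 had mean levels of 277, 196 and 104 ppm in E, M and RE, and Slc1a5 of 79.7, 55.0 and 32.5 ppm. For Myc they were Snai3 (0.0984), Gpr160 (0.134) and Anks6 (0.139), all at low levels. Cdkn1a was closest to Smox (0.0668), the spermine oxidase, to Vars (0.0974), a tRNA synthetase gene, and to Sh2d5 (0.0981). Cdkn2c was closest to Aspscr1 (0.0487), Zfp456 (0.0511) and Clybl (0.0576). With 6 libraries and 13893 genes, close profiles are to be found for most genes, and nothing on shared control is read from them.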

How the data were processed

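Whole-transcriptome RNA from EpH4 cells at the E, M and RE stages was sequenced on an Illumina Genome Analyzer, with 2 libraries per stage. Per the methods and the submitters' processing notes, the authors mapped unique reads to NCBI m37 with Bowtie and TopHat2 and tested with edgeR; versions, and the tool that summed reads per gene, are not given in the sources used here. The authors deposited 1 table of coverage (signal), with sequenced bases summed per gene and no normalization, and not read counts: between 44.8% and 48.4% of the values from 1 to 400 are multiples of 50. Reads' worth is coverage divided by 50. Depth speaks to counting error alone, and the spread comes from 2 libraries a stage. Columns were taken to libraries by name, and 0 were left unused.

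Coverage was scaled to ppm of TMM-normalized totals (30% of log ratios and 5% of levels trimmed). A gene was tested if 2 or more libraries held 500 bases of it, and limma 3.58.1 in R 4.3.3 was fitted to log2(ppm + 0.1) over all 6 libraries, with group only and a mean trend, and p-values adjusted over 13893 genes. Fold changes on this scale understate changes of low genes. Levels per kb use the longest protein-coding GENCODE M21 transcript. edgeR was not used because coverage is not counts. The code was tested on simulated data.

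The genes and lists were chosen with earlier results of these data known. The lists were CDK4/6 and CDK2 kinases with cyclins E and A, other CDK inhibitors, pocket proteins and E2F factors, turnover of cyclin D, Myc and Kip proteins, the Myc network, Myc targets, E2F targets, p53 targets, senescence-associated genes, TGFβ cytostatic regulators and growth signals. All members are described, and from each list and comparison at most 4 DEGs by size of log2 fold change with a mean log2 level of at least 0, plus the 3 genes most like each called member; other list genes were chosen after their values were seen, and some items that the rule covers are not reported here. Replicate numbers in the labels are shared by the stages but were not treated as pairs. Alternatives covered thresholds, scaling, pseudocount, filter, array weights, block, pairwise fits and leaving out each library; removal of GC and length trends was chosen after seeing the data.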

Additional observations from a re-analysis of the deposited data

How the results depend on the processing

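Each comparison was recomputed under 19 alternatives. Of the members' log2 fold changes under these, 365 kept direction and side of the threshold, 19 lost the call, 9 gained one and 6 changed sign. All 6 were small: Ccnd3 in E vs. M with library totals (-0.19), Ccnd3 in E vs. RE without RE1 (0.00299, against -0.36 without RE2) and with GC and length trends removed (0.00596, with or without the block), and Cdkn1b in E vs. RE without E1 (0.00654, against -0.32 without E2) and without RE1 (0.00566).

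Members called in E vs. M numbered 2, and from 1 to 2 with 1 library left out. In M vs. RE the 0 became 2 at a fold threshold of 1.5, 1 (Cdkn2c) with library totals, 1 (Ccnd1) with GC and length trends removed and 1 with those trends removed in a fit with the block. In E vs. RE the 3 became 0 when only the 2 groups compared were fitted, and from 0 to 3 with 1 library left out. The same fit of 2 groups left 6 of the list genes and 626 of all genes in E vs. RE. A fold threshold of 1.5 gave 29 of 161 list genes in E vs. RE and 41 in M vs. RE, beside 12.7% and 16.5% of all genes. Leaving out 1 library gave from 9 to 28 list genes for E vs. M, from 0 to 30 for E vs. RE and from 10 to 27 for M vs. RE. It gave from 917 to 3325, 9 to 2288 and 628 to 2308 of all genes in that order. The cause was not tested; fits without a library have fewer samples and assume that the lone library of a stage varies like the others.

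Deviations of same-numbered libraries correlated at r of 0.266 (E and M), 0.0579 (E and RE) and 0.116 (M and RE), so the numbers were not taken to pair them. With the replicate number as a block, 2, 0 and 3 members were called, as without it, for E vs. M, then M vs. RE, then E vs. RE. Beside them stood 21, 25 and 15 list genes and 2389, 1793 and 1215 of all genes. Library totals moved the all-gene median to -0.29, 0.18 and -0.08 (log2) in that order, and the share of all calls that were higher from 50.2% to 30.5%, from 62.3% to 73.8% and from 65.2% to 57.1%. The members held at least 426 reads' worth each, and what limits their calls was not tested.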

Other observations

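Of 14 tested genes for the turnover of cyclin D, Myc and Kip proteins, 1 was called lower in E vs. M and higher in M vs. RE. In those directions 8.35% and 7.92% of all genes were called, so 1 call of 14 cannot be set apart from that background. The called gene was Usp2, a deubiquitinase known to stabilise cyclin D1. Usp2 had 9.53 and 12.8 ppm in E, 2.55 and 3.84 ppm in M, and 11.5 and 9.52 ppm in RE, so it fell in M (log2 fold change -1.79, limma adjusted p = 0.00167) and rose from M to RE (1.71, limma adjusted p = 0.00258), the former lost without M1 and the latter without M1, RE1 or RE2. In E vs. RE, 0 of the 14 were called by limma, beside 9.09% of all genes, and 4 had an unadjusted p below 0.05. Fbxw7, the ubiquitin ligase subunit that marks Myc and cyclin E for destruction, had 42.0 and 43.7 ppm in E, 69.3 and 67.8 ppm in M, and 41.3 and 41.5 ppm in RE. Its M libraries lay above the rest. The log2 fold changes were 0.68 in E vs. M (limma adjusted p = 0.00402) and -0.73 in M vs. RE (limma adjusted p = 0.00376), short of the fold required. These are RNA values, and a link to Myc was not tested. Fbxw7 was chosen after its values were seen.

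Of the other genes named as CDK inhibitors, 0 of 3 were called in any comparison by limma, and 1, 0 and 2 had an unadjusted p below 0.05 in E vs. M, M vs. RE and E vs. RE. Cdkn2d, which encodes the INK4 protein p19, lay between 0.379 and 0.832 ppm. Cdkn3, a phosphatase acting on CDKs, had 24.4 and 14.1 ppm in E, 8.80 and 9.19 ppm in M, and 9.32 and 9.42 ppm in RE, with a log2 fold change of -1.04 in E vs. M (limma adjusted p = 0.0153). Cdkn2aip, a partner of Arf, lay between 41.0 and 66.3 ppm.

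Of 13 tested senescence-associated genes, 1 was called higher and 2 lower in E vs. M, beside 8.41% and 8.35% of all genes. In M vs. RE 1 was called higher and 2 lower (7.92% and 4.79%), and in E vs. RE 1 and 0 (5.93% and 3.16%). The chemokine gene Cxcl1 had 39.8 and 25.0 ppm in E, 7.00 and 7.32 ppm in M, and 89.4 and 91.2 ppm in RE. Its log2 fold change was 1.51 in E vs. RE (limma adjusted p = 0.00335), lost with any M or RE library left out and with E and RE fitted alone. The list's median log2 fold changes in E vs. M, M vs. RE and E vs. RE were 0.30, -0.38 and -0.19.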
